A study of Homo sapiens with 12 samples.

Results

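Transcripts of 10 human genes of the nucleolus and of RNA polymerase I were followed in liver cancer cells with and without METTL5. The genes were DDX21, NCL, NPM1, FBL, NOP56, NOP58, DKC1, POLR1A, POLR1B and UBTF. They were taken by gene name, as 10 of the 58884 genes in the deposited table, with earlier results of these data known. All 10 passed the filter on low counts. RNA sequencing covered 4 groups of 3 libraries. The groups were METTL5 knockout HCC-LM3 cells infected with a METTL5 sgRNA, untreated wild-type HCC-LM3 cells, METTL5 knockout Huh-7 cells infected with a METTL5 sgRNA, and untreated wild-type Huh-7 cells. HCC-LM3 is a metastatic hepatocellular carcinoma line, and Huh-7 comes from a hepatocellular carcinoma and keeps hepatocyte features. No control sgRNA, clone or separate culture is named. The p-values therefore measure how far these libraries spread, which may be technical only, and effects of infection or of picking cells cannot be told apart from loss of METTL5.

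The nucleolus is where RNA polymerase I transcribes the ribosomal DNA and where the resulting pre-rRNA is folded, modified, cut and joined to ribosomal proteins. UBTF binds the ribosomal DNA and recruits RNA polymerase I, whose catalytic core is formed by POLR1A and POLR1B. FBL, NOP56 and NOP58 are core proteins of the box C/D small nucleolar ribonucleoproteins (snoRNPs), which methylate the ribose of rRNA, and DKC1 is the pseudouridine synthase of the box H/ACA snoRNPs. NCL (nucleolin), NPM1 (nucleophosmin) and the RNA helicase DDX21 are abundant RNA-binding proteins that organise the nucleolus and act in rRNA transcription and processing. METTL5 is itself an rRNA methyltransferase, which adds m6A to the small-subunit rRNA.

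The libraries held between 17495280 and 26415554 counts in all. METTL5 had 0 counts in each of the 6 knockout libraries, against 8.99 ± 0.814 CPM in HCC-LM3 wild type and 9.51 ± 1.55 CPM in Huh-7 wild type (CPM after TMM scaling, that is, counts scaled to a common library size; SD, n = 3 each). Against a floor of 3 counts per library, which covers counting error only, the knockouts were at least 86.9-fold lower than wild type in HCC-LM3 and at least 27.2-fold lower than it in Huh-7. HCC-LM3 wild-type replicate 1 stood apart, with a chi-square per gene of 34.9 and 28.8 against replicates 2 and 3, where those replicates differed from each other by 4.01. The Huh-7 knockout libraries also stood apart from the other 9. The mean deposited gene length weighted by counts was taken over protein-coding genes not encoded in mitochondria. It was 1698 to 1725 bases in Huh-7 knockout, against 2731 to 2863 bases in Huh-7 wild type and 3033 to 3260 bases in the HCC-LM3 libraries. Of 10 hepatocyte markers, 10 reached a mean of 1 TPM in both Huh-7 groups, where their summed level was 6315 to 6418 TPM in knockout and 10888 to 12402 TPM in wild type. In HCC-LM3 only 1 of the 10 did, with summed levels of 12.5 to 17.1 TPM in knockout and 12.4 to 14.0 TPM in wild type, and TTR and APOB were listed at 0 in all 6 libraries. Immune cell markers summed to at most 57.7 TPM and endothelial markers to at most 2.82 TPM in any library. Most of the immune sum was CD68. It averaged 52.6 TPM in HCC-LM3 knockout and 44.6 TPM in its wild type, and 18.6 TPM in Huh-7 knockout and 29.5 TPM in its wild type. LYZ averaged 14.8 TPM and CD14 3.76 TPM in Huh-7 wild type, whereas PTPRC was listed at 0 in every group but that one.

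The promoters of 4 genes are shown because they stand for the contrasts below: with TMM scaling DDX21 and NPM1 were lower in knockout cells of both lines, whereas FBL and NOP56 were not lower in HCC-LM3 and had the opposite sign to the other 8 genes in Huh-7. RefSeq promoters on GRCh38.p14 were matched for 9 of the 10 genes (all but NOP58). Each line gives the 250 bases before the RefSeq start, 5′ to 3′ on the gene's strand, for DDX21 at chr10:68955920-68956169 (+), NPM1 at chr5:171387599-171387848 (+), FBL at chr19:39846380-39846629 (-) and NOP56 at chr20:2652382-2652631 (+). Capitals mark, on either strand, the CCAAT box (CCAAT), the GC box (GGGCGG) and the ETS motif (CCGGAAG).
DDX21: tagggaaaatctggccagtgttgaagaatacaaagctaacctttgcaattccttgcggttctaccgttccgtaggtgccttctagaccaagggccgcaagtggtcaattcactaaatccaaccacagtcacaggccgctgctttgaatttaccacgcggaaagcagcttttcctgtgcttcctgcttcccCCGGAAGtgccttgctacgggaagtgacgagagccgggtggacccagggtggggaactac
NPM1: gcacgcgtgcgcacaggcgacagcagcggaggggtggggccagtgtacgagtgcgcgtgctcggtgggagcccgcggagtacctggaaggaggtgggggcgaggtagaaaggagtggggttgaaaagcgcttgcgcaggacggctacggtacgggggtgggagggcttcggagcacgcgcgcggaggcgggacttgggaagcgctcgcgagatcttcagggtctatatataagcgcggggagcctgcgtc
FBL: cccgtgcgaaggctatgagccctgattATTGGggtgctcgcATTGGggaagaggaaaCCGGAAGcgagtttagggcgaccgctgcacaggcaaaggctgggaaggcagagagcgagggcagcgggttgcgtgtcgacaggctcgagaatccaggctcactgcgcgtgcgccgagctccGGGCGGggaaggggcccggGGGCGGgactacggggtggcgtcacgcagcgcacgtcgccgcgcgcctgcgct
NOP56: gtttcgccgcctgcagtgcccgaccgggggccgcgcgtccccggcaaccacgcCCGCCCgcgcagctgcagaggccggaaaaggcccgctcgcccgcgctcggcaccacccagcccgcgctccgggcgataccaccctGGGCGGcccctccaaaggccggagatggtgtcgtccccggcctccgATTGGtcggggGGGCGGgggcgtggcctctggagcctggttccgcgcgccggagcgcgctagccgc
The ETS motif lies in the promoters of DDX21, FBL and POLR1B, 3 of 9, against 10.7% of all 27305 RefSeq promoters (300 bases, from 250 before to 50 after the start). CCAAT is found in those of NCL, FBL and NOP56, against 35.7% of all promoters. The GC box is found in 6 of the 9, those of NCL, FBL, NOP56, DKC1, POLR1B and UBTF, against 44.6% of all promoters. The E-box CACGTG, the core of the MYC binding motif, is in that of FBL alone among the 9, after the start, against 7.43% of all promoters. The exact TATA box string TATAAA is in none of the 9, against 11.95% of all promoters. Other forms of the TATA box were not searched, and the NPM1 window holds tatatataa toward its 3′ end. The window before NPM1 holds none of the marked motifs. The GC content of the 250 bases was 53.2% for DDX21, 67.6% for NPM1, 68.8% for FBL and 78% for NOP56.

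Levels per transcript length, as deposited TPM (counts scaled by length and library), ordered the genes in much the same way in the knockout and wild-type cells of HCC-LM3. FBL averaged 709 ± 22.8 TPM in HCC-LM3 knockout and 679 ± 31.1 TPM in wild type, and NPM1 averaged 519 ± 16.1 TPM in knockout and 827 ± 144 TPM in wild type (SD, n = 3 each). NPM1 and FBL were the 2 highest genes in both groups, and their libraries overlapped in wild type but not in knockout, where FBL was above NPM1 in every library. NOP56 (143 ± 8.12 TPM in knockout, 156 ± 7.92 TPM in wild type) and NCL (82.8 ± 9.27 TPM in knockout, 130 ± 26.4 TPM in wild type) came next. At the low end, POLR1A stood at 11.4 ± 0.627 TPM in knockout and 10.5 ± 1.28 TPM in wild type, and POLR1B at 9.94 ± 1.10 TPM in knockout and 14.1 ± 2.15 TPM in wild type. In Huh-7 the spread between the genes was far wider in knockout cells. FBL averaged 470 ± 11.1 TPM in Huh-7 knockout and 508 ± 31.3 TPM in wild type, and NOP56 averaged 129 ± 8.42 TPM in knockout and 204 ± 15.2 TPM in wild type. POLR1B, the lowest of the 10, averaged 0.24 ± 0.0265 TPM in Huh-7 knockout and 2.58 ± 0.577 TPM in wild type.

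**Figure D1:**
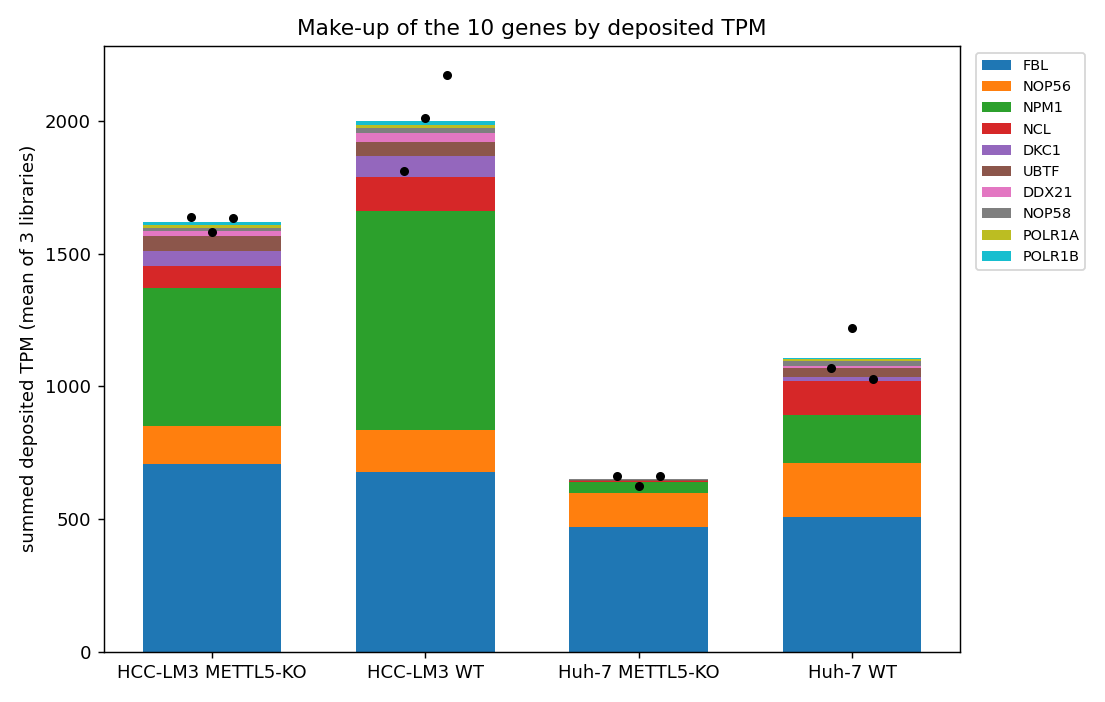
Summed deposited TPM of the 10 genes in METTL5 knockout and wild-type HCC-LM3 and Huh-7 cells. Bars stack the mean TPM of each gene over 3 libraries and points give each library's sum; FBL and NOP56 make up 92.2% of the sum in Huh-7 knockout and 64.5% in Huh-7 wild type.

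Summed over the 10 genes, deposited TPM came to 1618 ± 31.9 in HCC-LM3 knockout and 1999 ± 183 in HCC-LM3 wild type, and to 650 ± 22.9 in Huh-7 knockout and 1105 ± 100.3 in Huh-7 wild type (SD, n = 3 each). The ranges of knockout and wild type did not overlap in either line, and the smallest p that an exact permutation test can give with 3 libraries a group is 0.1. FBL and NOP56 together held 52.6% ± 1.07 of the sum in HCC-LM3 knockout and 42.02% ± 4.82 in its wild type, and 92.2% ± 0.412 in Huh-7 knockout and 64.5% ± 2.42 in its wild type. NPM1 held 32.1% ± 0.404 in HCC-LM3 knockout and 41.2% ± 3.55 in wild type, and 6.17% ± 0.367 in Huh-7 knockout and 16.3% ± 1.13 in Huh-7 wild type. In CPM after TMM scaling, the sum was 1480 ± 50.1 in Huh-7 knockout and 1428 ± 111 in Huh-7 wild type, and those ranges overlapped. The TMM factors were 0.491 to 0.510 in Huh-7 knockout and 1.06 to 1.10 in Huh-7 wild type. The TPM and CPM sums therefore differ in this scaling as well as in division by length. The length behind TPM was not the same in every library of a gene. In Huh-7 knockout POLR1B had 23 counts and 0.27 TPM in replicate 1, and 31 counts and 0.22 TPM in replicate 2. FBL had 8647 counts and 475 TPM in replicate 1, and 7181 counts and 457 TPM in replicate 2. How length entered the TPM is not given in the sources used here.

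All 3 scaffold genes fell in HCC-LM3 knockout, and DDX21 had the largest change of the 10 genes. DDX21, NCL and NPM1 were lower in every knockout library than in any wild-type library, as were 18.2% of tested genes. Across the 10 genes 6 were called, against 26.8% of the 16537 tested genes. Of these 5 fell (DDX21, NCL, NPM1, NOP58 and POLR1B), against 12.9% of tested genes called lower, and 1 rose (POLR1A), against 14% called higher. A gene was called at an adjusted p under 0.05 in edgeR's quasi-likelihood test with Benjamini-Hochberg adjustment over all tested genes. The median log2 fold change of the 10 genes was -0.34, and that of all tested genes was 0.00. Among all genes 2308 were called higher and 2132 lower, and with library totals in place of TMM factors the split was 1199 higher and 3423 lower, and with deposited TPM 923 higher and 2472 lower. In bulk RNA a smaller share of cells with a transcript and less of it per cell cannot be told apart.

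**Figure D2:**
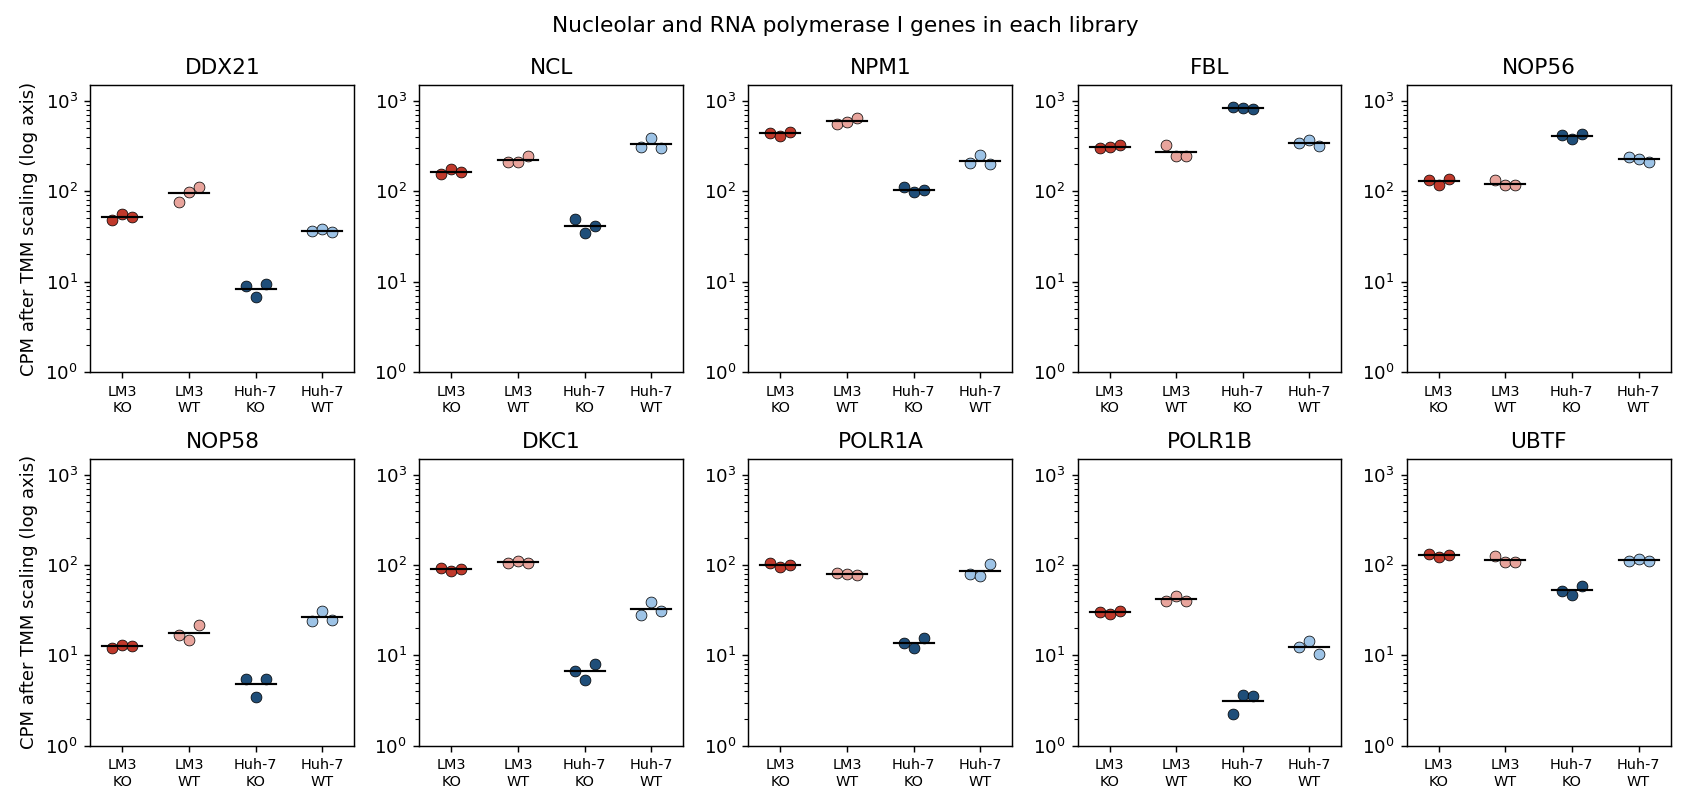
CPM after TMM scaling (log axis) of the 10 genes in each library of METTL5 knockout (KO) and wild-type (WT) HCC-LM3 (LM3) and Huh-7 cells; points are libraries in order of replicate and bars are means of 3. DDX21 sits at 48.3 to 56.7 CPM in LM3 KO and 76.1 to 112 CPM in LM3 WT, and FBL sits at 812 to 852 CPM in Huh-7 KO and 319 to 371 CPM in Huh-7 WT, a difference that deposited TPM gives the opposite sign.

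DDX21, the helicase, lies on chromosome 10 (68956128 to 68985073, plus strand, GRCh38 with GENCODE 29). It had 48.3, 56.7 and 51.6 CPM in the HCC-LM3 knockout libraries, against 76.1, 96.9 and 112 CPM in wild type. The wild-type value of 76.1 belongs to replicate 1, the library that stood apart, and it too was above all 3 knockout libraries. The log2 fold change was -0.86 ± 0.11 (SE, adjusted p = 1.91e-06), and -1.01 without wild-type replicate 1 (adjusted p = 1.13e-08). Only 3.85% of tested genes had a lower log2 fold change.

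NCL, on chromosome 2 (231453531 to 231483641, minus strand), had 156, 176 and 163 CPM in HCC-LM3 knockout, against 211, 209.6 and 247 CPM in wild type. NPM1, on chromosome 5 (171387116 to 171411137, plus strand), had 439, 413 and 456 CPM in knockout, against 558, 589 and 649 CPM in wild type. Knockout and wild-type libraries did not overlap for either gene, and in both genes wild-type replicate 3 was the highest of the 6. NCL fell by 0.43 ± 0.11 on the log2 scale (SE, adjusted p = 0.00368) and NPM1 by 0.46 ± 0.10 (SE, adjusted p = 0.000997). Without wild-type replicate 1 the log2 fold changes were -0.48 for NCL and -0.51 for NPM1, both called. With offsets for transcript GC content and gene length NCL was still called (-0.33, adjusted p = 0.0353), whereas NPM1 was not (-0.09, adjusted p = 0.312).

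Of the box C/D proteins only NOP58 was called in HCC-LM3. NOP58, on chromosome 2 (202265716 to 202303666, plus strand), had 12.01, 13.2 and 12.6 CPM in knockout, against 16.8, 14.6 and 21.5 CPM in wild type. Every knockout library was below every wild-type one, as for 18.2% of tested genes, and wild-type replicate 3 was well above the other wild-type libraries. Its log2 fold change was -0.49 ± 0.14 (SE, adjusted p = 0.00987). The call was lost without wild-type replicate 3 (-0.33, adjusted p = 0.121) and with GC and length offsets (-0.15, adjusted p = 0.452).

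FBL, the rRNA methyltransferase on chromosome 19 (39834458 to 39846414, minus strand), had 298, 309 and 322 CPM in HCC-LM3 knockout, against 326, 247 and 243 CPM in wild type. Wild-type replicate 1 alone was above all knockout libraries, so the groups overlapped. The log2 fold change was 0.19 ± 0.10 (SE, adjusted p = 0.191), and without wild-type replicate 1 it was 0.33 and called (adjusted p = 0.00042). NOP56, on chromosome 20 (2652145 to 2658393, plus strand), had 132, 118 and 136 CPM in knockout, against 132, 116 and 117 CPM in wild type, and the groups overlapped. Its log2 fold change was 0.08 ± 0.09 (SE, adjusted p = 0.594), with a 95% interval of -0.11 to 0.27, and its sign turned to -0.074 with library totals and -0.12 with deposited TPM.

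DKC1, on chromosome X (154762742 to 154777689, plus strand), had 93.4, 86.0 and 90.9 CPM in HCC-LM3 knockout, against 106, 111 and 106 CPM in wild type. All 3 knockout libraries were below all wild-type libraries, as 18.2% of tested genes were. The log2 fold change of -0.25 ± 0.10 (SE) missed the threshold (adjusted p = 0.0597). It passed in 6 of 23 alternatives. Among these were leaving out wild-type replicate 1 (-0.27, adjusted p = 0.0374), deposited TPM (-0.42, adjusted p = 0.0458) and fitting HCC-LM3 alone (-0.28, adjusted p = 0.014).

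The catalytic subunits of RNA polymerase I moved in opposite directions in HCC-LM3. POLR1A, the largest subunit, on chromosome 2 (86020216 to 86106155, minus strand), had 105, 95.3 and 101 CPM in knockout, against 81.1, 78.6 and 77.6 CPM in wild type. POLR1B, also on chromosome 2 (112541915 to 112577150, plus strand), had 30.3, 28.8 and 30.9 CPM in knockout, against 39.7, 44.9 and 40.4 CPM in wild type. For POLR1A every knockout library was higher than every wild-type library, as for 20.5% of tested genes. For POLR1B every one was lower, as for 18.2%.

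POLR1A rose by 0.34 ± 0.10 on the log2 scale (SE, adjusted p = 0.00989) and POLR1B fell by 0.48 ± 0.11 (SE, adjusted p = 0.00203). The rise of POLR1A was not called with library totals (0.19, adjusted p = 0.157), with deposited TPM (0.12, adjusted p = 0.552), with GC and length offsets (0.20, adjusted p = 0.0937) or without knockout replicate 1 (0.30, adjusted p = 0.0634). The fall of POLR1B was called under each of these. By deposited TPM the ratio of POLR1A to POLR1B was 1.08 to 1.195 in HCC-LM3 knockout and 0.702 to 0.775 in wild type, with no overlap.

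UBTF, on chromosome 17 (44205033 to 44221626, minus strand), had 132, 123 and 130 CPM in HCC-LM3 knockout, against 127, 108 and 108 CPM in wild type. The groups overlapped through wild-type replicate 1. Its log2 fold change was 0.17 ± 0.09 (SE, adjusted p = 0.182), and without that replicate it was 0.24 and called (adjusted p = 0.0151). Leaving out wild-type replicate 1 therefore gave 6 of the 10 genes lower and 3 higher, with 6136 genes called in all in place of 4440.

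Library composition moved with the HCC-LM3 comparison as well. The GC content weighted by counts was also taken over protein-coding genes not encoded in mitochondria. It was 54.2% to 54.3% in knockout, against 53.2% to 53.8% in wild type, where 53.8% was that of replicate 1. The median log2 fold change was -0.38 over tested genes with under 42% GC and 0.25 over those with 55% or more. DDX21 (40.6% GC), NOP58 (41.5%) and NPM1 (41.7%) belong to the low end, and FBL (56.7%) and UBTF (55.3%) to the high end. With GC and length offsets 3 of the 10 genes were called, all lower (DDX21, NCL and POLR1B), and DDX21 stood at -0.50 (adjusted p = 2.37e-05).

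In Huh-7 the 10 genes separated into 8 that fell and 2, FBL and NOP56, that rose under TMM scaling. With deposited TPM both changed sign, and NOP56 was called lower while FBL was not called. The background was high, with 75% of tested genes called, 43.2% lower and 31.7% higher. For all 10 genes the knockout and wild-type libraries did not overlap, where 44.2% of tested genes had every knockout library below and 32.3% had every one above. The median log2 fold change was -2.06 for the 10 genes and -0.30 for all tested genes. Among all genes the split of 5247 higher and 7152 lower became 1993 higher and 10795 lower with library totals, 6511 higher and 5853 lower with DESeq2 size factors, and 5194 higher and 4368 lower with GC and length offsets. With deposited TPM it was 856 higher and 11401 lower.

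NCL had the largest fall of the 10, with 48.8, 34.3 and 41.8 CPM in Huh-7 knockout, against 307, 389 and 303 CPM in wild type. Every knockout library was far below every wild-type library. The log2 fold change was -2.997 ± 0.12 (SE, adjusted p = 2.57e-19), and 7.31% of tested genes lay below it. It was -1.77 with GC and length offsets and -4.84 with deposited TPM, called in both.

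DDX21 had 8.87, 6.76 and 9.45 CPM in Huh-7 knockout, against 36.3, 38.4 and 35.1 CPM in wild type. NPM1 had 113, 97.9 and 102 CPM in knockout, against 205, 252 and 198 CPM in wild type. Both genes were far lower in all 3 knockout libraries, DDX21 by 2.12 ± 0.15 on the log2 scale (SE, adjusted p = 2.68e-14) and NPM1 by 1.07 ± 0.11 (SE, adjusted p = 5.36e-11). For DDX21, a long transcript with few G and C bases, the GC and length offsets left a log2 fold change of -0.12 (adjusted p = 0.375), whereas NPM1 remained called at -0.66.

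Within the box C/D complex the 3 core proteins parted. NOP58 had 5.52, 3.50 and 5.49 CPM in Huh-7 knockout, against 23.8, 31.2 and 24.7 CPM in wild type. FBL had 852, 837 and 812 CPM in knockout, against 345, 371 and 319 CPM in wild type. NOP56 had 424, 381 and 427 CPM in knockout, against 239, 225 and 209.9 CPM in wild type. On this scale NOP58 was lower, and FBL and NOP56 were higher, in every knockout library than in any wild-type library.

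NOP58 fell by 2.44 ± 0.18 on the log2 scale (SE, adjusted p = 7.22e-14) and was called lower under each scaling, at -1.55 with GC and length offsets. FBL rose by 1.27 ± 0.11 on the log2 scale (SE, adjusted p = 8.71e-13), but stood at 0.16 with library totals (adjusted p = 0.0604), -0.11 with deposited TPM (adjusted p = 0.0689) and -0.02 with GC and length offsets (adjusted p = 0.792). With TMM factors NOP56 rose by 0.87 ± 0.10 (SE, adjusted p = 5.84e-10), and the offsets gave 0.66, but it was called lower with library totals (-0.24, adjusted p = 0.00529) and with deposited TPM (-0.65, adjusted p = 2.44e-06). NOP58 had the lowest value of the 3 under each of these scalings. By deposited TPM the ratio of NOP56 to NOP58 was 109 ± 9.99 in Huh-7 knockout and 11.96 ± 2.54 in Huh-7 wild type, and 11.4 ± 1.62 in HCC-LM3 knockout and 8.49 ± 1.75 in HCC-LM3 wild type (SD, n = 3 each).

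DKC1 had 6.80, 5.36 and 8.02 CPM in Huh-7 knockout, against 28.0, 38.9 and 30.6 CPM in wild type. Its log2 fold change was -2.27 ± 0.14 (SE, adjusted p = 6.17e-16), and it stayed at -1.78 with GC and length offsets. That was the lowest of the 10 values under those offsets, with NCL next at -1.77.

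All 3 genes of the RNA polymerase I machinery fell in Huh-7. POLR1A had 13.7, 12.1 and 15.5 CPM in knockout, against 78.7, 76.5 and 103 CPM in wild type. POLR1B had 2.27, 3.61 and 3.52 CPM in knockout, against 12.3, 14.3 and 10.4 CPM in wild type, and only 23 to 32 counts lie behind each knockout value. UBTF had 52.1, 46.6 and 58.7 CPM in knockout, against 109.9, 117 and 112 CPM in wild type. No knockout library reached a wild-type one in any of the 3 genes. The log2 fold changes were -2.64 ± 0.12 for POLR1A (SE, adjusted p = 5.98e-19), -1.995 ± 0.18 for POLR1B (SE, adjusted p = 3.88e-12) and -1.10 ± 0.10 for UBTF (SE, adjusted p = 6.06e-12). With GC and length offsets POLR1A (-1.01) and UBTF (-0.57) were still called and POLR1B was not (-0.43, adjusted p = 0.0509).

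**Figure D3:**
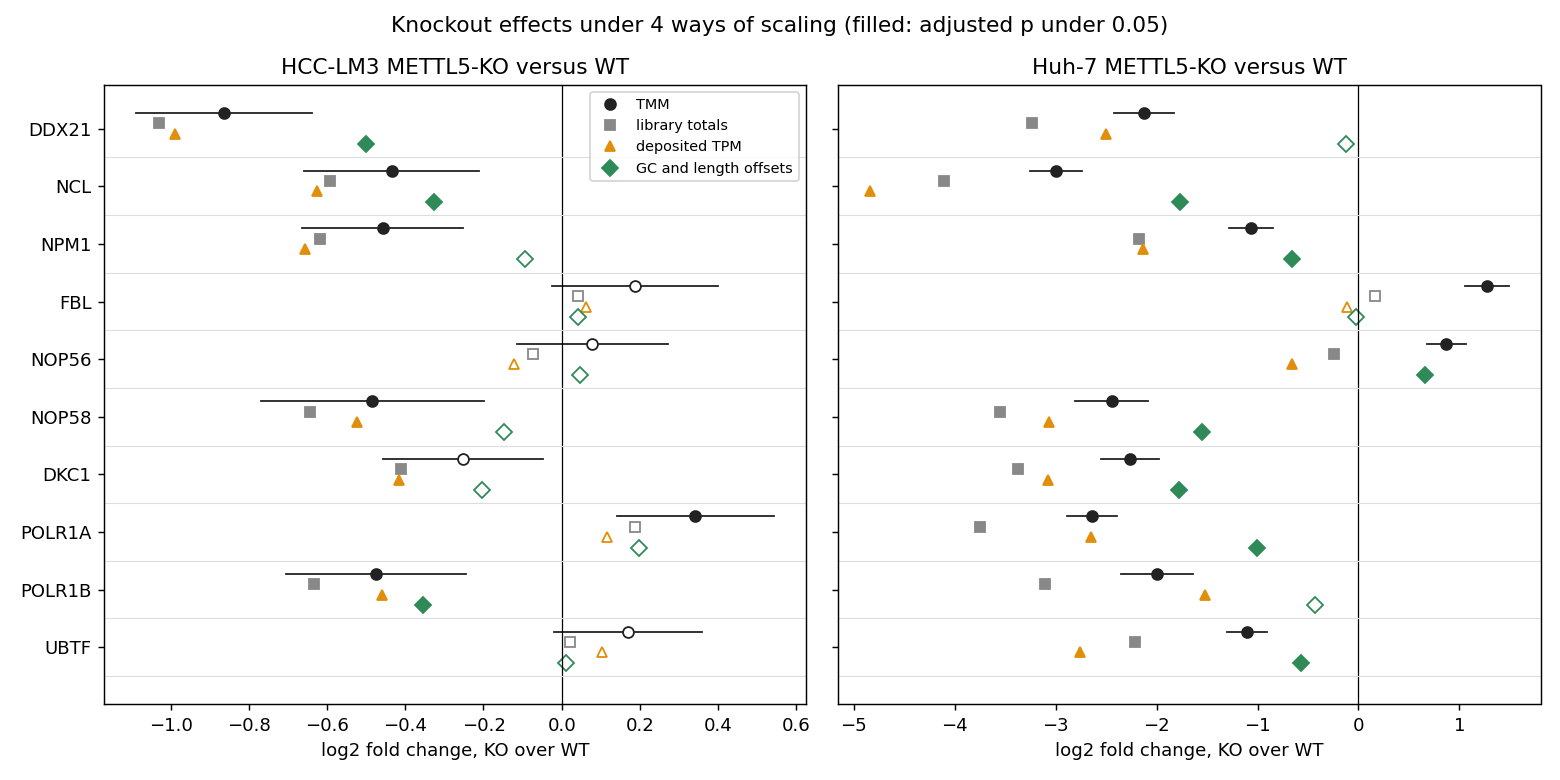
Log2 fold changes of METTL5 knockout over wild type for the 10 genes in HCC-LM3 (left) and Huh-7 (right) with TMM factors, library totals, deposited TPM (as log2 of TPM + 1) and GC and length offsets; lines are 95% intervals for TMM and filled symbols passed an adjusted p of 0.05. In Huh-7, FBL goes from 1.27 with TMM to -0.11 with TPM and NOP56 from 0.87 to -0.65, and in HCC-LM3 NOP56 changes sign between 0.08 and -0.12.

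The Huh-7 differences went along with transcript composition over the whole table. Over tested genes shorter than 1500 bases the median log2 fold change was 1.199, and over those of 5000 bases or more it was -1.94. By GC content the median was -1.86 under 42% and 0.59 at 55% or more. FBL is the shortest of the 10 at 1125 bases and the richest in G and C at 56.7%. NPM1, at 1338 bases, is the next shortest but has 41.7% GC, and its fall was the smallest of the 8 with TMM factors. UBTF, at 4795 bases, has 55.3% GC and a fall close to that of NPM1. POLR1A, with 12480 bases, is the longest. NCL has 3924 bases and 47.2% GC, DKC1 2469 bases and 48.4%, and NOP58 1994 bases and 41.5%. Each of the 8 genes that fell, except NPM1, had a log2 fold change below the medians of both its GC bin and its length bin. Under GC and length offsets 6 of the 10 genes were called lower and 1, NOP56, higher. What sets the composition of the Huh-7 knockout libraries was not tested.

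**Figure D4:**
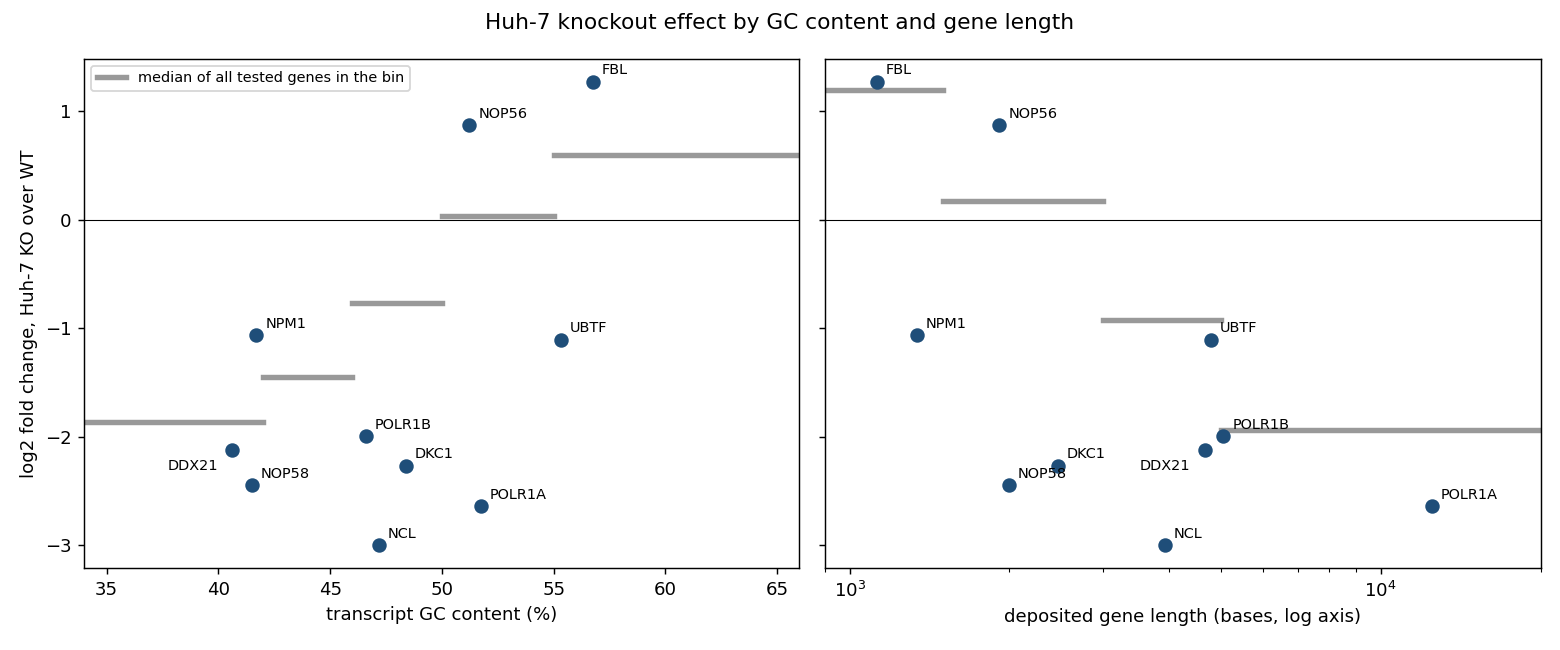
Huh-7 log2 fold change of METTL5 knockout over wild type (TMM) for the 10 genes (points) against transcript GC content (left, percent) and deposited gene length (right, bases, log axis); grey bars are the medians of all tested genes in each bin. The medians run from -1.86 under 42% GC to 0.59 at 55% or more, and FBL and NOP56, whose sign turns with deposited TPM, are the only points above 0.

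The test of the difference between the lines subtracted each gene's Huh-7 effect from its HCC-LM3 effect. All 10 were called, 8 higher and 2 lower, where 61.6% of tested genes were called, 37.7% higher and 23.9% lower. The median of the differences was 1.40 for the 10 genes and 0.39 for all tested genes. POLR1A differed most, by 2.98 ± 0.16 on the log2 scale (SE, adjusted p = 8.63e-17), with effects of opposite sign in the lines. NCL (2.56 ± 0.16), DKC1 (2.01 ± 0.18) and NOP58 (1.96 ± 0.23) followed, and the smallest of the 8 was NPM1 (0.61 ± 0.14, adjusted p = 0.000471), which was not called with DESeq2 size factors (0.20, adjusted p = 0.275). FBL (-1.08 ± 0.15) and NOP56 (-0.79 ± 0.13) were the 2 lower ones, and both turned positive with deposited TPM (0.17 for FBL, 0.53 for NOP56). With GC and length offsets DDX21 turned to -0.38 (adjusted p = 0.0193) and FBL to 0.065 (adjusted p = 0.589), and POLR1B stood at 0.07 (adjusted p = 0.842). Among all genes the split of 6233 higher and 3953 lower was 9504 higher and 1574 lower with library totals, 4893 higher and 5103 lower with DESeq2 size factors, 3712 higher and 4282 lower with the offsets, and 9636 higher and 954 lower with deposited TPM.

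The wild-type lines differed in these genes before any knockout, but at a rate near that of all tested genes. POLR1B, DKC1, NPM1 and DDX21 were higher in wild-type HCC-LM3 than in wild-type Huh-7, against 41.8% of tested genes called higher. NOP56, NOP58, NCL and FBL were lower, against 41% of tested genes called lower, and 82.8% were called in all. The split of 6910 higher and 6775 lower was 8430 higher and 5429 lower with library totals and 9147 higher and 4555 lower with deposited TPM. The libraries of the lines did not overlap for 7 of the 10 genes, the exceptions being FBL, POLR1A and UBTF. Over all tested genes, 41.8% had every HCC-LM3 library above and 40.8% every one below.

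POLR1B stood at 41.7 CPM on average in wild-type HCC-LM3 and 12.3 CPM in wild-type Huh-7, a log2 difference of 1.75 ± 0.12 (SE, adjusted p = 4.4e-15). DKC1 differed by 1.73 ± 0.11 (SE, adjusted p = 1.99e-16), NPM1 by 1.46 ± 0.10 and DDX21 by 1.37 ± 0.11. These 4 were called higher under each scaling tried. NOP56 was lower in HCC-LM3 by 0.88 ± 0.10 on the log2 scale (SE, adjusted p = 3.04e-10) and was called lower under each scaling. NCL (-0.58) turned to 0.0077 and NOP58 (-0.59) to 0.10 with deposited TPM, and FBL (-0.34) turned to 0.42 with it. The call of FBL was also lost without HCC-LM3 wild-type replicate 2 (-0.22), without its replicate 3 (-0.21) and without Huh-7 wild-type replicate 2 (-0.25). POLR1A (-0.12, adjusted p = 0.263) turned to 0.31 with deposited TPM. UBTF (0.02, adjusted p = 0.872) turned to -0.039 with DESeq2 size factors and stood at 0.68 with deposited TPM. These comparisons share their wild-type libraries with the knockout comparisons.

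In order of mean CPM, DDX21, NPM1, DKC1 and POLR1B ran from wild-type HCC-LM3, through HCC-LM3 knockout and wild-type Huh-7, down to Huh-7 knockout, with no overlap between neighbours. NCL and NOP58 had wild-type Huh-7 on top and then the same order, again with no overlap. FBL and NOP56 were highest in Huh-7 knockout and lowest in wild-type HCC-LM3, an order that deposited TPM does not give. The HCC-LM3 groups overlapped in both genes, and for FBL the wild-type Huh-7 libraries also overlapped those of HCC-LM3 knockout. For POLR1A and UBTF the upper 3 groups overlapped with their neighbours, and only Huh-7 knockout stood below them.

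Profiles over the 12 libraries were compared by the root-mean-square distance between centred log2 CPM values. FBL and NOP56 were the closest pair of the 10 (0.26), followed by DKC1 and POLR1B (0.29) and NCL and NOP58 (0.30), and NOP56 and DKC1 were the farthest apart (2.27). Other genes were compared with the mean profile of the 10 if they were tested and protein-coding or untyped. The closest were RIPK1 (0.0746), SPAG5 (0.102), SGCE (0.104), GMCL1 (0.105) and ARHGEF28 (0.107). Within the same limits TNKS2 (0.126), COPB1 (0.127) and CDC27 (0.137) were closest to DDX21.

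Other genes of the same machinery were taken from lists, of which every member in the table that passed the filter was counted. Their counts stand beside 14% of all tested genes called higher and 12.9% lower in HCC-LM3, and 31.7% higher and 43.2% lower in Huh-7. Of 11 other subunits of RNA polymerase I, 2 fell and 9 were not called in HCC-LM3 (median log2 fold change -0.04, turning to 0.04 without wild-type replicate 1), and 5 were lower with library totals or with deposited TPM. POLR1F, a stalk subunit, fell by 0.84 ± 0.19 on the log2 scale (SE, adjusted p = 0.00153) and POLR2K, a small subunit shared by all nuclear RNA polymerases, by 0.72 ± 0.12 (SE, adjusted p = 7.40e-05). In Huh-7, 8 of the 11 rose and 3 fell with TMM factors (median 1.45), opposite to POLR1A and POLR1B. With library totals 7 were higher and 3 lower (median 0.34), and with GC and length offsets 6 and 3 (median 0.29). With deposited TPM, however, 3 rose and 6 fell (median -0.22). The largest rises in Huh-7 with TMM factors were those of the small subunits POLR2F (2.05 ± 0.10), POLR1H (2.04 ± 0.12) and POLR2L (2.001 ± 0.11, SE). With GC and length offsets POLR1H stood at 0.66, POLR2F at 0.23 and POLR2L at 0.04, the last of these not called (adjusted p = 0.617).

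Of 7 initiation and termination factors for RNA polymerase I, 3 fell and 4 were not called in HCC-LM3 (median -0.48). They were the terminator protein TTF1 (-0.60 ± 0.15), the selectivity factor subunit TAF1D (-0.59 ± 0.11) and RRN3 (-0.52 ± 0.12, SE), which links the polymerase to its promoter. Without wild-type replicate 1 the count was 4, and with GC and length offsets none was called (median -0.18). In Huh-7, 6 of the 7 fell and 1 was not called (median -1.22), led by TAF1B (-2.85 ± 0.36), RRN3 (-2.73 ± 0.22) and TAF1A (-2.51 ± 0.51, SE). With offsets 4 were lower and 1 higher. The Huh-7 knockout means of TAF1B and TAF1A were only 0.43 and 0.24 CPM, near the floor of 0.35 CPM set by 3 counts.

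Among 13 other snoRNP proteins and assembly factors, 2 rose and 3 fell in HCC-LM3 (median -0.08, turning to 0.03 without wild-type replicate 1), and 8 were lower with library totals. Those counts of 2 and 3 are near the shares called among all genes. The assembly factors RPAP3 (-0.74 ± 0.16) and ZNHIT6 (-0.61 ± 0.17) fell and PIH1D1 rose (0.50 ± 0.10, SE). In Huh-7 with TMM factors 7 rose and 6 fell (median 0.38), and with deposited TPM 2 rose and 10 fell (median -0.77). ZNHIT6 (-3.07 ± 0.33), NUFIP1 (-3.01 ± 0.38) and SHQ1 (-2.42 ± 0.37, SE), all assembly factors, fell most. Their Huh-7 knockout means were only 0.43, 0.44 and 0.36 CPM, near the floor of 0.35 CPM set by 3 counts.

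Of 13 other nucleolar phosphoproteins, GTPases and rRNA modifiers, 1 rose and 3 fell in HCC-LM3 (median -0.06, turning to 0.03 without wild-type replicate 1). NIFK, a nucleolar protein that interacts with Ki-67, had a log2 fold change of -0.72 ± 0.12, and the GTPases GNL3 and GNL2 had -0.48 ± 0.11 and -0.47 ± 0.13 (SE). In Huh-7, 2 rose and 11 fell (median -1.75), and 8 were lower with GC and length offsets (median -1.04). GNL2 (-2.81 ± 0.21), the phosphoprotein NOLC1 (-2.75 ± 0.13) and TSR1 (-2.06 ± 0.15, SE) fell most.

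The small-subunit processome, which assembles on the nascent pre-rRNA, had 2 higher and 12 lower of 28 genes in HCC-LM3 (median -0.30). The lower count was 14 without wild-type replicate 1, with 6 higher, and 5 with GC and length offsets. DCAF13 (-1.20 ± 0.13), WDR36 (-0.71 ± 0.15) and KRR1 (-0.67 ± 0.18, SE) fell most. In Huh-7, 6 rose and 19 fell (median -1.08), led by MPHOSPH10 (-2.84 ± 0.25), UTP15 (-2.76 ± 0.32) and UTP3 (-2.73 ± 0.23, SE). UTP15 averaged only 0.59 CPM in Huh-7 knockout, where 3 counts set a floor of 0.35 CPM. With GC and length offsets 11 of the 28 were higher and 6 lower in Huh-7 (median -0.01). With library totals 3 were higher and 23 lower there, and with deposited TPM 0 were higher and 25 lower.

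Large-subunit assembly factors had 1 higher and 10 lower of 32 in HCC-LM3 (median -0.10), and 7 higher and 11 lower without wild-type replicate 1. With GC and length offsets 0 were higher and 5 lower there, and with library totals 1 was higher and 16 lower. NOC3L (-0.76 ± 0.20), BRIX1 (-0.64 ± 0.12) and the helicase DDX18 (-0.62 ± 0.12, SE) fell most. In Huh-7, 9 rose and 20 fell (median -1.001), and with GC and length offsets 14 were higher and 10 lower (median 0.16). With library totals 2 were higher and 28 lower there, and with deposited TPM 0 were higher and 31 lower. The giant AAA ATPase MDN1 (-3.23 ± 0.13), RRP1B (-2.60 ± 0.14) and NOL8 (-2.39 ± 0.26, SE) fell most.

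Many of these named genes lost their call with GC and length offsets. In HCC-LM3 these were POLR1F (-0.43), TTF1 (-0.33), TAF1D (-0.18), RRN3 (-0.21), RPAP3 (-0.31), ZNHIT6 (-0.26), GNL3 (-0.20), GNL2 (-0.19), KRR1 (-0.32), NOC3L (-0.34), BRIX1 (-0.24) and DDX18 (-0.25). In Huh-7 they were ZNHIT6 (-0.75), NOL8 (-0.54) and POLR2L. With deposited TPM the calls of RPAP3 (-0.59), GNL2 (-0.50), WDR36 (-0.19) and KRR1 (-0.46) in HCC-LM3 and of POLR2F (0.15) in Huh-7 were lost.

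**Figure D5:**
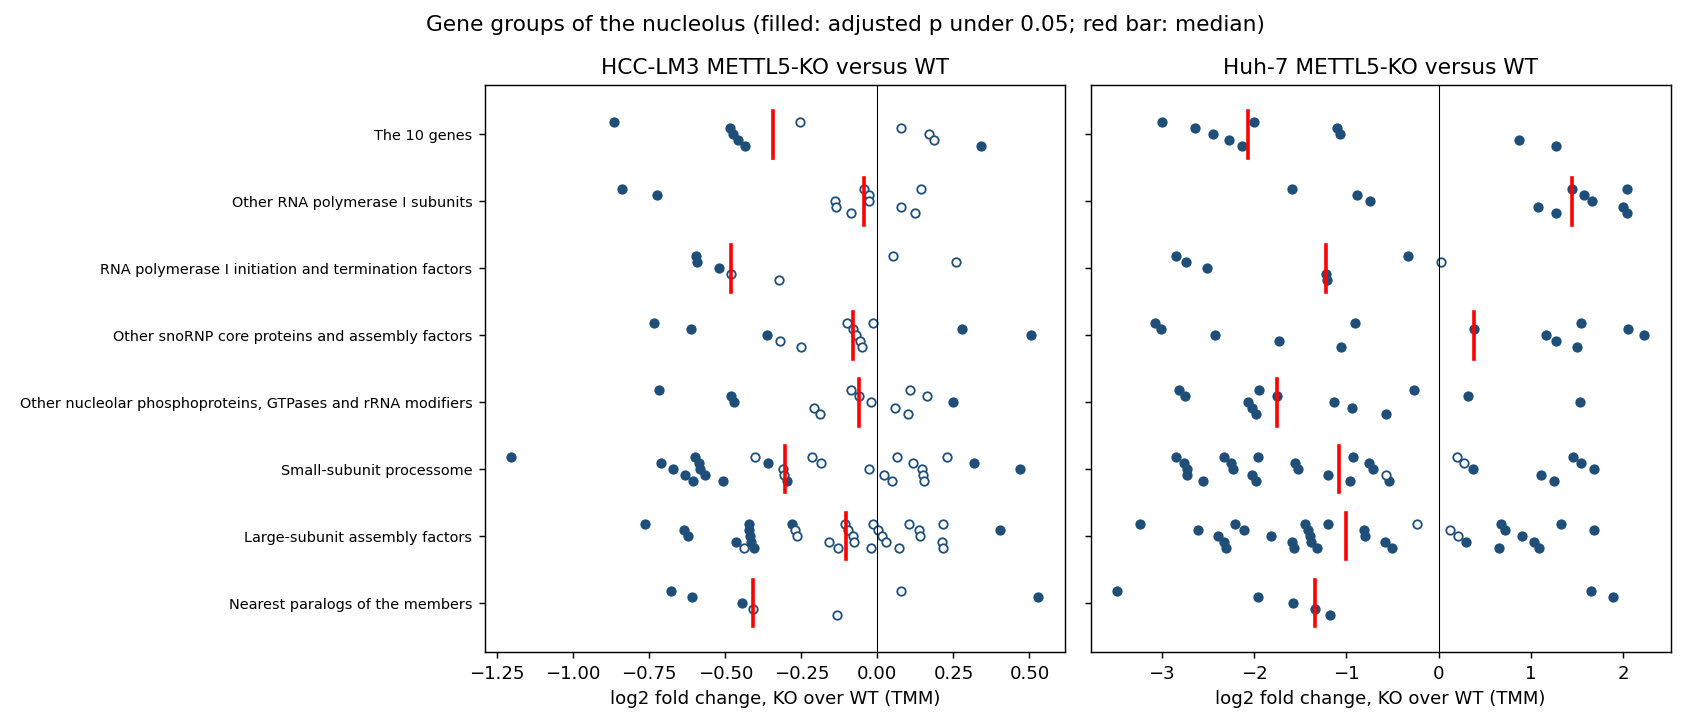
Log2 fold changes of METTL5 knockout over wild type (TMM) in HCC-LM3 (left) and Huh-7 (right) for the 10 genes and 7 lists of related genes; each point is a gene, filled if its adjusted p was under 0.05, and red bars are medians. In Huh-7 the other RNA polymerase I subunits centre on 1.45 and the 10 genes on -2.06; the medians of the polymerase subunits and of the other snoRNP proteins turn negative with deposited TPM.

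The nearest paralogs were read beside the genes themselves, and FBLL1 did not pass the filter. Of 7 tested, 1 rose and 3 fell in HCC-LM3 (median -0.41). In Huh-7, 2 rose and 5 fell (median -1.34), and with GC and length offsets 1 was higher and 1, POLR2A, lower (median 0.09). With library totals, and also with deposited TPM, 1 was higher and 5 were lower there. DDX50, the closest relative of DDX21, had log2 fold changes of -0.45 ± 0.14 in HCC-LM3 (SE, adjusted p = 0.0205) and -1.34 ± 0.25 in Huh-7 (SE, adjusted p = 1.25e-05), of the same sign as DDX21 in both, but it was not called in Huh-7 with GC and length offsets. NPM3, a relative of NPM1, had -0.13 ± 0.10 in HCC-LM3 and 1.89 ± 0.10 in Huh-7 (SE), where NPM1 fell. For the counterparts of POLR1A and POLR1B in the other polymerases, POLR2A rose (0.53 ± 0.10) while POLR2B (-0.68 ± 0.12) and POLR3B (-0.61 ± 0.14, SE) fell in HCC-LM3. In Huh-7 POLR2A (-3.48 ± 0.12) and POLR2B (-1.95 ± 0.15, SE) fell. POLR3B in HCC-LM3 (-0.35) and POLR2B in Huh-7 (-0.26) were not called with GC and length offsets.

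Some reads of these genes could belong to other features. NPM1 has 46 pseudogenes by name, and they held 0.502% of the counts summed over NPM1 and those pseudogenes. The introns of NCL, NOP56, NOP58 and DKC1 hold 14 annotated snoRNA genes, and over all 12 libraries those had 6.61 counts in sum, with at most 1.9 in a library, so their levels could not be read from these libraries. UBTF overlaps the antisense genes AC004596.1 and AC003102.1, and whether strand was used in counting is not given in the sources used here. The mitochondrially encoded mRNAs, read as a sign of library composition, had 7 of 13 higher and 6 not called in HCC-LM3 knockout (median 0.31), and 3 higher with library totals or deposited TPM. In Huh-7 knockout 9 were higher and 3 lower (median 0.68), turning to 1 higher and 11 lower with deposited TPM (median -0.95). In HCC-LM3 the largest of these were MT-ATP8 (0.52 ± 0.18), MT-ND1 (0.49 ± 0.11) and MT-ND2 (0.41 ± 0.10, SE). The call of MT-ATP8 was lost in 14 of 23 alternatives, among them library totals (0.37), GC and length offsets (0.37), deposited TPM (0.21) and leaving out wild-type replicate 1 (0.62). In Huh-7 they were MT-ND3 (1.77 ± 0.11), MT-ND5 (-1.45 ± 0.11) and MT-CO2 (1.31 ± 0.10, SE), the last of which turned to -0.33 with deposited TPM.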

How the data were processed

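RNA from 12 libraries (METTL5 knockout and wild type, HCC-LM3 and Huh-7, 3 each) was sequenced on an Illumina NovaSeq after TRIzol extraction, per the labels' protocols. For each gene the authors deposited its length in bases and, per library, an expected count and a TPM, per the file headers. Between 7.49% and 13.3% of the deposited expected counts in a library are not whole. The submitters' processing notes name Bowtie 0.12.2 with mm8 and mm9, mouse builds that cannot underlie human Ensembl identifiers. The human build, the counting tool and the strand setting: not given in the sources used here. Per-sample columns left unused numbered 0.

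Expected counts were rounded, genes kept by filterByExpr (16537), and edgeR 4.0.16 (R 4.3.3) fitted with TMM factors and a robust quasi-likelihood model, 1 mean per group over all 12 libraries (8 residual degrees of freedom). Tests are two-sided, with Benjamini-Hochberg adjustment over all tested genes and calls under 0.05. SEs come from the F statistic. Contrasts subtracted wild type from knockout within each line, the Huh-7 effect from the HCC-LM3 effect, and Huh-7 from HCC-LM3 among wild-type cells. Alternatives were DESeq2 1.42.0 (size factors, Wald test), library totals, limma 3.58.1 (voom, or log2 of TPM + 1), 2 other filters, offsets for GC content and length, each line alone, a replicate block, adjusted p under 0.01 and leaving out each library. The fits were tested on simulated data. Coordinates and GC content are from GENCODE 29 (GRCh38), which holds 99.54% of the identifiers, and promoters from RefSeq (GRCh38.p14).

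The members and lists were chosen with earlier results of these data known. The genes named are the 10 members, METTL5, the 3 called genes of each list and line with the largest change (mean of at least 1 CPM), the 5 genes nearest the members' mean profile and the 3 nearest to DDX21. DDX50 and NPM3 in both lines were added after their values were seen. List counts under 4 alternatives were also chosen after seeing the data. Markers of cholangiocytes and fibroblasts were measured too: they summed to 368 to 468 TPM and 0.78 to 20.0 TPM.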

Additional observations from a re-analysis of the deposited data

Results flagged for a closer look

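The knockout effect differed between the lines for all 10 genes by the test of the difference itself (HCC-LM3 effect minus Huh-7 effect, log2 scale, edgeR with Benjamini-Hochberg adjustment), where 61.6% of tested genes were called. The scaffold genes differed by 1.26 (DDX21, adjusted p = 5.26e-07), 2.56 (NCL, adjusted p = 1.76e-14) and 0.61 (NPM1, adjusted p = 0.000471). Among the snoRNP proteins the difference was -1.08 for FBL (adjusted p = 9.72e-08) and -0.79 for NOP56 (adjusted p = 4.51e-06), both positive with deposited TPM, 1.96 for NOP58 (adjusted p = 6.76e-09) and 2.01 for DKC1 (adjusted p = 7.03e-12). The RNA polymerase I genes differed by 2.98 (POLR1A, adjusted p = 8.63e-17), 1.52 (POLR1B, adjusted p = 1.75e-07) and 1.27 (UBTF, adjusted p = 6.38e-10). With GC and length offsets DDX21 turned to -0.38 (adjusted p = 0.0193) and FBL to 0.065 (adjusted p = 0.589), POLR1B stood at 0.07 (adjusted p = 0.842), and NPM1 was not called with DESeq2 size factors (0.20, adjusted p = 0.275). In CPM the Huh-7 knockout libraries did not overlap wild type for any of the 10 genes, where 44.2% of tested genes had every knockout library below and 32.3% every one above. In deposited TPM FBL stood at 457 to 478 in Huh-7 knockout and 483 to 543 in wild type, and NOP56 at 119 to 134 in knockout and 186 to 214 in wild type, the direction opposite to that in CPM.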

How the results depend on the processing

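In HCC-LM3, 4440 genes called became 2939 with GC and length offsets and 2622 at an adjusted p under 0.01. The 1 member called higher became 0 with library totals, with GC and length offsets and with deposited TPM, and the 5 called lower became 3 with the offsets. In Huh-7 the 2 called higher became 0 with library totals and with TPM and 1 with the offsets. For the difference between the lines the 2 called lower became 0 with library totals and with TPM. Between the wild-type lines the 4 called higher became 7 with TPM, and the 4 called lower became 1 with library totals and 1 with TPM. Leaving out 1 library gave 2743 to 6136 genes in HCC-LM3 (the lowest without replicate 3 of wild type, the highest without its replicate 1), with 0 to 3 members higher and 4 to 6 lower. It gave 12013 to 12704 genes in Huh-7, 9847 to 10105 for the difference and 13387 to 14132 between wild-type lines, where 3 or 4 members were lower. The causes were not tested. These log2 values changed sign. NOP56 in HCC-LM3 was -0.074 with library totals and -0.12 with TPM. In Huh-7, FBL was -0.022 with the offsets and -0.11 with TPM, NOP56 was -0.24 with library totals and -0.65 with TPM, and MT-CO2 (1.31) was -0.33 with TPM. For the difference, DDX21 was -0.38 with the offsets, FBL 0.065 with the offsets and 0.17 with TPM, and NOP56 0.16 with library totals and 0.53 with TPM. Between wild-type lines, NCL was 0.0077 and NOP58 0.10 with TPM. FBL there was 0.066 with library totals, 0.25 with the offsets and 0.42 with TPM, and POLR1A was 0.30, 0.12 and 0.31 in the same order and -0.18 to 0.034 without 1 library each, the highest without Huh-7 wild-type replicate 3. UBTF was -0.039 with DESeq2 size factors, -0.039 with the DESeq2 Wald test, -0.011 with the stricter filter and -0.010 without HCC-LM3 wild-type replicate 1. The median of all genes shifted to -0.12 in HCC-LM3 and -1.40 in Huh-7 with library totals, and to -0.68 in Huh-7 with TPM and 0.46 between wild-type lines with library totals. Deviations from the group means correlated at -0.11 to 0.08 across genes between same-numbered knockout and wild-type libraries. With 3 libraries a group these values cannot show whether the numbers pair cultures, and the labels do not say. The replicate block gave 3989 genes in HCC-LM3, 12251 in Huh-7 and 9962 for the difference, with the same member counts. This block cannot be set between wild-type lines. The Huh-7 knockout values of POLR1B rest on 23 to 32 counts per library.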
